A study of Mus musculus with 3 samples.

Results

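Hematopoietic stem and multipotent cells were picked out of lineage-negative mouse bone marrow as 447 of 19762 kept barcodes, selected on their UMIs (distinct mRNA tags) of a fixed set of genes. Kept barcodes had 500 or more detected genes, 1000 or more UMIs, and no more than 10% of UMIs from mitochondrial genes. A kept barcode became a member when its UMIs of Hlf, Mecom, Procr and Adgrl4 summed to at least 2, from 1 of these genes or several. Members also had no UMI of Kdr, which marks endothelium, or of Cd3e, Cd3d and Cd3g, which mark T cells. At most 2 UMIs were allowed of Pf4 (megakaryocytes), 1 of Dntt (lymphoid progenitors), 3 of Car1 (erythroid progenitors) and 5 of Elane and Prtn3 together (neutrophil progenitors). Measured values of these 13 genes chose the members, so their levels are given below as a description only.

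The marrow came from mice of 3 genotypes, with 1 library each. The Lztr1 knockout is Lztr1fl/fl;Mx1Cre+, Rit1-M90I is Rit1M90I/+;Mx1Cre+, and the Cre-negative control is Rit1M90I/+Mx1Cre-, a library whose title also calls it wild type. All of the mice, 8 weeks old, were given 3 doses of pIpC at 12 mg/kg, one every other day, and marrow was taken 4 weeks after the injections. pIpC is a synthetic double-stranded RNA that induces interferon and through it Mx1-Cre, which recombines in blood stem cells and in other interferon-responsive cells such as those of the liver. Live cells negative for CD3, CD11b, Gr1, B220 and Ter119 were sorted. Cre is present in the 2 mutants alone, so its own effect cannot be told apart from that of the genotypes. The labels do not say how many mice a library was made from.

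Blood stem cells sit at the top of the blood system, where they are rare, mostly quiescent and able to renew themselves. They give rise to multipotent progenitors, which lose that ability step by step and begin to transcribe genes of the myeloid, lymphoid or erythroid and megakaryocyte lineages at low levels, a state called priming. Signals through KIT and other cytokine receptors reach RAS proteins and the MAPK cascade, which drive proliferation. RIT1 belongs to the RAS superfamily. LZTR1 brings RIT1 and some RAS proteins to a cullin ubiquitin ligase for degradation, and the M90I change lets RIT1 escape it.

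The members numbered 57 in the Lztr1 knockout, 184 in Rit1-M90I and 206 in the control. They held 421919, 976474 and 1224195 UMIs in that order, with medians of 7030, 4716.5 and 5347 UMIs per member. All kept barcodes had medians of 10140.5 UMIs in the knockout, 6885 in Rit1-M90I and 7021 in the control, so the knockout library was the deepest per cell. The kept barcode filter removed 19.6% of knockout, 15.2% of Rit1-M90I and 11.2% of control barcodes. Between 2 and 12 kept barcode sequences were shared by any pair of libraries, and no member was among them. With 1 library per genotype there is no replicate and no test. Every interval below is a 95% interval for counting error, and leaves out the variation among mice and among cells.

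Adgrl4, an adhesion G protein-coupled receptor gene of endothelium and stem cells (mm10, chr3:151437887-151545086), and Hlf, a transcription factor gene that marks stem cells (chr11:90336536-90390895), carried most of the selection. Summed over members, Adgrl4 stood at 332 CPM (counts per 1000000 UMIs of the group) in the knockout, 362 in Rit1-M90I and 399 in the control. Hlf stood at 332, 355 and 334 CPM in the same order. Mecom, a zinc finger transcription factor gene needed for stem cell maintenance (chr3:29951296-30548008), was at 45.0, 79.9 and 83.3 CPM. Procr, which encodes the protein C receptor used to sort stem cells (chr2:155751117-155755471), was at 16.6, 25.6 and 20.4 CPM. In the other kept barcodes of the same libraries Hlf lay between 7.30 and 11.4 CPM and Adgrl4 between 32.0 and 36.2 CPM. Of the limits, that on Elane and Prtn3 removed most: of 314 knockout, 874 Rit1-M90I and 876 control barcodes with at least 2 stem-gene UMIs, 144, 415 and 434 were left out by it alone.

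The members carried the wider gene set of stem and multipotent cells, which the rule did not use, although a comparison with the barcodes it left out is still no test. Ranked by the lowest of the 3 ratios over the other kept barcodes, the first 15 genes of at least 50 CPM included the 14 described here, which are Gm19590, Myct1, Gcnt2, Meis1, Ctla2a, Itih5, Basp1, Serpina3g, Tbxas1, Spns2, Gng11, Adgrg1, Angpt1 and Rbpms. Myct1, a target of MYC found in stem cells and endothelium, had 94.8 CPM in knockout, 101 in Rit1-M90I and 99.7 in control members, which was 12.3 to 16.5 times its level in the other kept barcodes. Meis1, the homeobox partner of HOX proteins in stem cells, had 201, 225 and 251 CPM, or 7.62 to 8.77 times the others. Angpt1, the ligand of the TIE2 receptor, had 175, 240 and 293 CPM, or 4.48 to 7.85 times the others. All 14 genes were higher in members of every library, and for 10 of them the knockout members had the lowest level of the 3. That count depends on barcodes of other lineages, described below: without them the knockout was lowest for 6 of the 14, and Myct1 stood at 137, 119 and 112 CPM. The list of 36 stem cell identity genes summed to 4608 CPM in knockout members, against 1975 CPM in the other kept barcodes of that library.

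**Figure D1:**
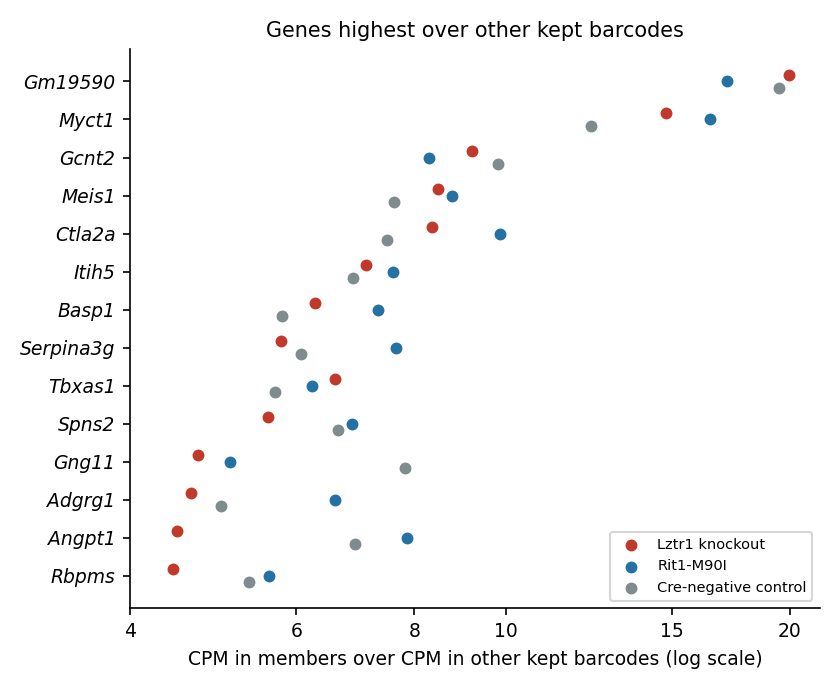
Each point is the CPM of a gene in members over its CPM in the other kept barcodes of the same library, on a log scale, for 14 genes of those ranked first by the lowest of the 3 ratios, with the Lztr1 knockout, Rit1-M90I and Cre-negative control as separate points. Ratios for Gm19590 run from 17.2 to 19.96 and those for Rbpms from 4.45 to 5.61.

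Some of these genes separated the members from the barcodes nearest to them and others did not. Barcodes with at least 3 Dntt UMIs, which are lymphoid progenitors by that gene, held Meis1 at 49.5 CPM in the knockout, 65.6 in Rit1-M90I and 70.9 in the control. Barcodes with at least 2 Apoe UMIs, a Gata1 UMI and no Car1 UMI, an erythroid and megakaryocyte side of the marrow, held it at 130, 140 and 144 CPM. Angpt1 was at 175, 240 and 293 CPM in members. In these Apoe and Gata1 barcodes it was at 247, 181 and 201 CPM, higher than in members in the knockout and lower in Rit1-M90I and the control. Myct1 was at 48.0, 42.3 and 38.5 CPM there, below its level in members in each library.

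The label did not hold for all members, and the exceptions were more frequent in both mutants. Limits chosen after the values were seen were set on UMIs of other lineages. Members with at least 4 UMIs of Gata3, Il7r, Rora and Id2, which together are typical of innate lymphoid cells and their precursors, numbered 12 of 57 in the knockout (21.1%, 11.4 to 33.9), 26 of 184 in Rit1-M90I (14.1%, 9.44 to 20.02) and 7 of 206 in the control (3.398%, 1.38 to 6.88; exact Clopper-Pearson intervals). Of the other kept barcodes, 9.51%, 6.23% and 7.83% passed the same limit. Nearly all of these members had entered on Hlf alone, 11 of 12, 22 of 26 and 5 of 7, and 10, 20 and 6 of them had no UMI of Kit. The pooled 12 knockout barcodes held 697 CPM of Gata3, a transcription factor of innate lymphoid and T cells, and 621 CPM of Il7r, the interleukin-7 receptor. They had no UMI of Meis1, Myct1, Cd34 or Angpt1, so the stem-cell genes were at 0 where the lymphoid genes were high. The 26 Rit1-M90I barcodes held 1242 CPM of Gata3 and 763 of Il7r, with 3 UMIs of Cd34, and the 7 control barcodes held 982 and 860 CPM, with 1 UMI of Cd34. Trbc2, a T cell receptor constant gene, was at 303, 512 and 900 CPM, from 7 of 12, 16 of 26 and 5 of 7 barcodes. Trbc1 was at 242, 381 and 40.9 CPM. The 12 knockout barcodes also held 2772 CPM of the basophil gene Prss34, from 4 of them, and 2 of the 12 were called doublets. Barcodes past this limit are called innate lymphoid after it, and whether some are T cells without a Cd3 UMI was not tested.

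Other limits took the following members. Barcodes with at least 10% of their UMIs from Igkc, Igha and Jchain, the products of plasma cells, numbered 1 in the knockout, 3 in Rit1-M90I and 0 in the control, all admitted by Procr alone. The single knockout barcode drew 64.2% of its UMIs from these genes and held 99.1% of such UMIs in all knockout members. The immunoglobulin limit took 1.65%, 2.24% and 1.74% of the other kept barcodes. A stromal limit on Cxcl12, Col1a1, Kitl and Igfbp5 took 1, 0 and 1 members, and 0.761%, 0.436% and 0.205% of the other kept barcodes. A limit on Mcpt8, Prss34, Cpa3 and Ms4a2, genes of basophils and mast cells, took 9 (15.8%), 13 (7.07%) and 17 (8.25%) members. It took 16.9%, 22.7% and 18.6% of the other kept barcodes. The members past the basophil limit were not without stem-cell genes: their median was 7, 8 and 9 UMIs of Meis1, Myct1, Gcnt2, Angpt1, Adgrg1, Ctla2a and Kit together. The doublet caller marked 2 knockout, 4 Rit1-M90I and 6 control members, of which 2, 4 and 5 were among the barcodes past a limit. These were 3.51%, 2.17% and 2.91% of members, beside 3.47%, 4.58% and 3.32% of all kept barcodes.

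**Figure D2:**
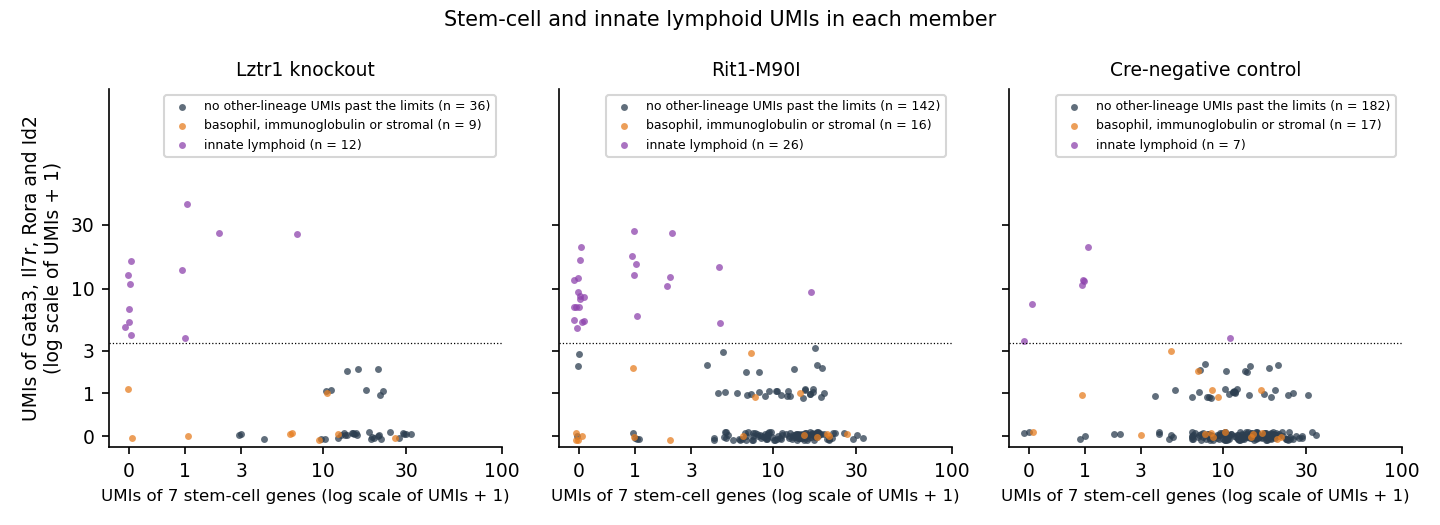
Each point is 1 member, placed by its UMIs of 7 stem-cell genes (Meis1, Myct1, Gcnt2, Angpt1, Adgrg1, Ctla2a and Kit) and its UMIs of Gata3, Il7r, Rora and Id2, both as the log of UMIs + 1 with a small random shift; the dotted line lies below the limit of 4 UMIs. Innate lymphoid points, 12 in the Lztr1 knockout, 26 in Rit1-M90I and 7 in the control, lie mostly at 0 or 1 stem-cell UMIs, and the other colours lie below the line.

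In all, 21 knockout members (36.8%), 42 Rit1-M90I members (22.8%) and 24 control members (11.7%) passed at least 1 limit. Of the other kept barcodes 28.1%, 30.8% and 27.7% did. The remaining 36, 142 and 182 members had a median of 16.5, 13 and 13 UMIs of the 7 stem-cell genes. They are called members without other-lineage UMIs, although UMIs below the limits remain, and are the ones in which the genotypes are mainly compared. Their median depth was 7066.5 UMIs in the knockout, 5011 in Rit1-M90I and 5282 in the control. In them the T and NK cell marker list summed to 40.8, 64.5 and 65.8 CPM, the B and plasma cell list to 193, 232 and 171 CPM, and the basophil, mast cell and eosinophil list to 63.1, 90.9 and 74.2 CPM. The last of these lists holds all genes of the basophil limit. The B and plasma cell list holds Igha of the immunoglobulin limit. Their levels here follow in part from the limits and are no test. Other marker lists, none of whose genes was in a limit, stood higher. The erythroid list was at 601 CPM in knockout members with a Flt3 UMI and 688 CPM in those without. It was at 509 and 629 CPM in Rit1-M90I and at 383 and 886 CPM in the control. The neutrophil and monocyte list summed to 1199, 682 and 626 CPM. Mpo, a single gene of this list that is described below, held 802, 287 and 275 CPM of these. The part of the list in the results below was not tested. In all members the B and plasma cell list reached 6435 and 5499 CPM in the knockout and Rit1-M90I and 184 CPM in the control, so leaving out the other-lineage barcodes lowered it in the mutants and hardly in the control. The neutrophil and monocyte list stood at 1199, 742 and 719 CPM in all members, near its level without them.

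Members just inside the threshold were the least stem-like. Of members with exactly 2 stem-gene UMIs, 81.3% in the knockout, 40.4% in Rit1-M90I and 27.5% in the control were past an other-lineage limit. With 6 UMIs or more these shares were 9.52%, 5.66% and 4.00%. The 7 stem-cell genes summed to 594, 1266 and 1537 CPM in members with exactly 2 stem-gene UMIs and to 2489, 2622 and 2458 CPM in those with 6 or more. Barcodes just outside, which met every other limit with exactly 1 stem-gene UMI, numbered 63, 273 and 204, and the same sum in them was 553, 762 and 807 CPM. In the knockout the sums just inside and just outside the threshold were close, but this rests on the 13 of 16 members past an other-lineage limit. Without barcodes past a limit the sum was 1309, 1762 and 1680 CPM at exactly 2 stem-gene UMIs and 354, 1199 and 1106 CPM at exactly 1.

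Stem and multipotent cells took a smaller share of the Rit1-M90I library than of the control. Members were 2.35% (1.79 to 3.04) of kept barcodes in the knockout, 1.87% (1.62 to 2.16) in Rit1-M90I and 2.74% (2.38 to 3.13) in the control. The ratio of Rit1-M90I over control was 0.684 (0.562 to 0.833, Katz interval), and that of the knockout over control was 0.859 (0.643 to 1.15), an interval that holds 1. Without other-lineage UMIs the shares were 1.49% in the knockout, 1.45% in Rit1-M90I and 2.42% in the control. The ratios then were 0.614 (0.431 to 0.876) for the knockout and 0.598 (0.481 to 0.743) for Rit1-M90I, and both intervals lay below 1. These ratios are at the unequal depths of the libraries, and those at equal depth are given below. Between the mutants the ratio of the knockout over Rit1-M90I was 1.26 (0.936 to 1.68) for all members and 1.03 (0.715 to 1.48) for those without other-lineage UMIs. The share of a sorted suspension also depends on all the other cells in it, and fewer stem cells cannot be told apart from more of the rest.

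Because the rule counts UMIs, depth enters the share from both sides: more UMIs lift a barcode over the stem-gene minimum and over the exclusion limits. With every kept barcode thinned at random to 4000 UMIs and shallower ones left out, the mean share over 20 draws was 3.09% in the knockout, 2.12% in Rit1-M90I and 3.62% in the control. This left 1989, 6636 and 5380 barcodes. The thinned ratio over control was 0.852 for the knockout and 0.584 for Rit1-M90I. The draws held on average 61.45, 140.4 and 195 members, and 55.9, 123.25 and 181.15 with other-lineage members left out. Without them the thinned ratio over control was 0.835 for the knockout and 0.552 for Rit1-M90I. The thinned ratio of the knockout over Rit1-M90I was then 1.51. Thinned to 6000 UMIs the knockout ratio was 1.23, and thinned to 2000 UMIs it was 0.757. The knockout share thus lay on either side of the control depending on the depth chosen, while the Rit1-M90I ratio lay between 0.552 and 0.712 in all 10 settings computed.

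**Figure D3:**
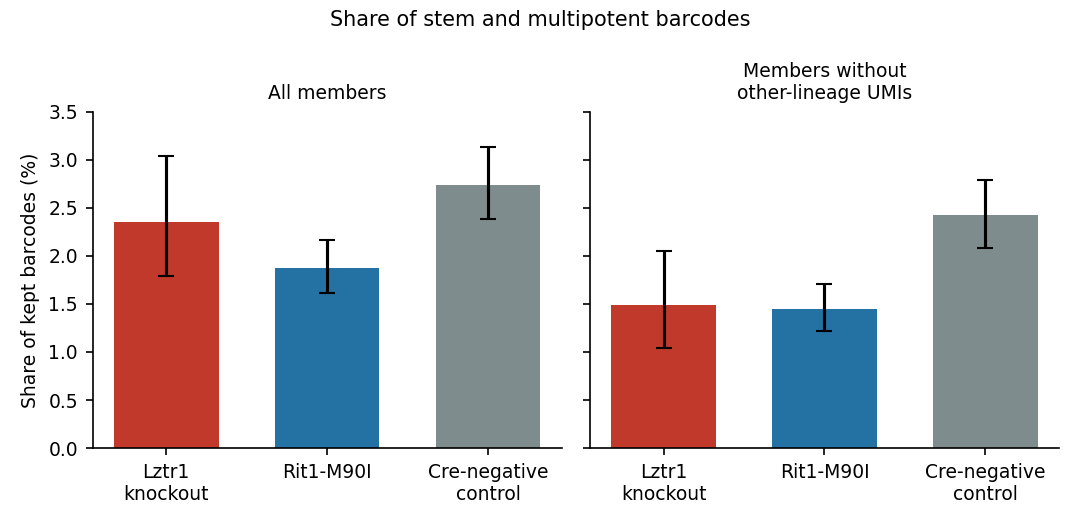
Bars give the share of kept barcodes in percent, with exact 95% Clopper-Pearson intervals for counting error, for all members (left) and for members without other-lineage UMIs (right), in the Lztr1 knockout, Rit1-M90I and the Cre-negative control. The control bar is the highest in both panels, at 2.74% and 2.42%.

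The targeted genes were scarce in these cells. Lztr1 (chr16:17508688-17526333) had 5 UMIs in knockout members, 11 in Rit1-M90I members and 28 in control members, or 11.9, 11.3 and 22.9 CPM. Relative to control members Lztr1 was at 0.518 (0.156 to 1.36) in the knockout and 0.493 (0.221 to 1.02) in Rit1-M90I, and both intervals hold 1. In the other kept barcodes Lztr1 stood at 6.25, 15.3 and 17.3 CPM, with a knockout ratio of 0.360 (0.306 to 0.422), so the library labelled knockout had less of the transcript outside the members. Counts are made from tags at the 3′ end of the gene, and the labels do not name the exons that the floxed allele loses, so the level is no measure of how many cells recombined. Rit1 (chr3:88716838-88731049) had 7, 16 and 13 UMIs in members, or 16.6, 16.4 and 10.6 CPM. In the other kept barcodes it stood at 11.8, 14.0 and 8.84 CPM, with ratios over control of 1.33 (1.16 to 1.52) in the knockout and 1.58 (1.43 to 1.75) in Rit1-M90I.

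Across all genes most differed little between the libraries. A gene was counted when its CPM plus 10 differed at least 1.5-fold, among genes with a mean of at least 20 CPM. In all members 4.87% of 6413 genes were higher and 5.02% lower in the knockout than in the control, against 2.11% higher and 1.76% lower in Rit1-M90I. In members without other-lineage UMIs 6.67% of 6419 genes were higher and 6.37% lower in the knockout, and 2.4% higher and 1.9% lower in Rit1-M90I. The median log2 ratio of all genes was 0.02 and -0.01 for these comparisons, so the libraries were level on this scale. The knockout had the fewest members and so the widest counting error, and more genes pass 1.5-fold by counting error alone where UMIs are fewer, so these percentages do not rank the genotypes. Both comparisons share the control.

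In all members the genes highest in the mutants were those of the other-lineage barcodes. Igkc, the immunoglobulin kappa constant gene, led in the knockout at 19340 CPM against 127 CPM in the control, with 99.3% of its knockout UMIs in 1 barcode. Igha, Jchain, Ccr9, Iglc2, Id2, Iglc3, Rora, Il7r and Cxcl12 followed. Id2, an inhibitor of basic helix-loop-helix factors in innate lymphoid cells, was at 133 CPM in the knockout and 22.9 CPM in the control. In Rit1-M90I the highest genes were Igkc, Igha, Jchain, Iglc3, Iglc2, Slpi, Ccr9, Gata3, Id2 and Il7r. These genes lost or reversed most of their difference without the other-lineage barcodes. Igkc, Igha, Jchain, Gata3, Il7r, Rora, Id2 and Cxcl12 are themselves genes of the limits that defined those barcodes. Their loss follows from the limits and is no test. The genes named from here on were ranked in the 36, 142 and 182 members without the other-lineage barcodes.

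Mpo, the myeloperoxidase gene of granulocyte and monocyte progenitors, was the most abundant of the 10 genes highest in the knockout. It stood at 802 CPM in knockout members, 287 in Rit1-M90I members and 275 in control members, a knockout ratio over control of 2.91 (2.43 to 3.48). The UMIs came from 25, 94 and 99 members, and the knockout member with most held 15.3% of them. T cells, which do not make the enzyme, held the gene at 920, 1069 and 614 CPM, a knockout ratio of 1.499 (1.35 to 1.67), and the part of free RNA in the members' counts was not tested. In the other kept barcodes together the ratio was 1.08 (1.07 to 1.09). After thinning to 2000 UMIs a Mpo UMI was found in 55.6% of knockout, 39.9% of Rit1-M90I and 31.3% of control members, against 25%, 37.7% and 19.5% of T cells. In Rit1-M90I the share of members was thus at the level of T cells, and in the knockout and the control it was above it.

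Clec12a, an inhibitory lectin receptor of myeloid cells, was at 104 CPM in knockout members, 50.1 in Rit1-M90I and 37.1 in the control, a knockout ratio of 2.80 (1.67 to 4.66), against 0.985 in the other kept barcodes. Pdcd4, an inhibitor of the translation initiation helicase eIF4A, was at 446, 288 and 185 CPM, with ratios over control of 2.40 (1.90 to 3.03) in the knockout and 1.56 in Rit1-M90I. Pdcd4 was higher in the other kept barcodes of both mutants as well, at ratios of 1.26 and 1.51. Gm47283, a gene known by its model name only, was at 275, 133 and 76.0 CPM, a knockout ratio of 3.61 (2.60 to 5.01). It differed in the whole library, with a ratio of 2.43 (2.33 to 2.53) in the other kept barcodes. The other 6 of the highest 10, Cfap20, 5530601H04Rik, Srp68, Hist1h1d, Dennd6a and Zfp322a, had ratios of 2.26 to 2.54 on 21 to 27 knockout UMIs each, and 0.951 to 1.23 elsewhere. Hist1h1d is 1 of several near-identical histone genes, between which reads can be exchanged.

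Myl10, a myosin light chain gene, was the lowest in both mutants among genes with a mean of at least 50 CPM; less abundant genes given further on had lower ratios. It had 8 UMIs in knockout members, 42 in Rit1-M90I members and 129 in control members, or 29.7, 55.3 and 120 CPM. The ratios over control were 0.248 (0.105 to 0.504) and 0.463 (0.318 to 0.660). The gene was lower across both mutant libraries, with ratios of 0.536 and 0.535 in the other kept barcodes and 0.467 and 0.590 in the barcodes with Dntt. Jund, a subunit of the AP-1 transcription factor, was at 85.4, 194 and 202 CPM, a knockout ratio of 0.422 (0.262 to 0.651), and at 0.650 (0.619 to 0.682) in the other kept barcodes. For both genes the knockout difference was thus present outside the stem and multipotent cells too.

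Med13, a subunit of the kinase module of Mediator, was at 22.3 CPM in knockout members, 59.3 in Rit1-M90I members and 75.1 in control members. Its knockout ratio was 0.297 (0.106 to 0.674) in members and 1.06 elsewhere. Sesn1, a stress-induced inhibitor of mTORC1, was at 22.3, 76.4 and 67.7 CPM, a ratio of 0.329 (0.117 to 0.752) against 0.963 elsewhere. These values rest on 6 knockout UMIs each. Tmem205, Birc5, BC005624, Wdr26, Snx6 and Clec2d made up the rest of the lowest 10, with ratios of 0.405 to 0.465 on 8 to 21 knockout UMIs. Elsewhere in the library their ratios ran from 0.804 for Clec2d to 1.16 for Birc5, the survivin gene of dividing cells.

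**Figure D4:**
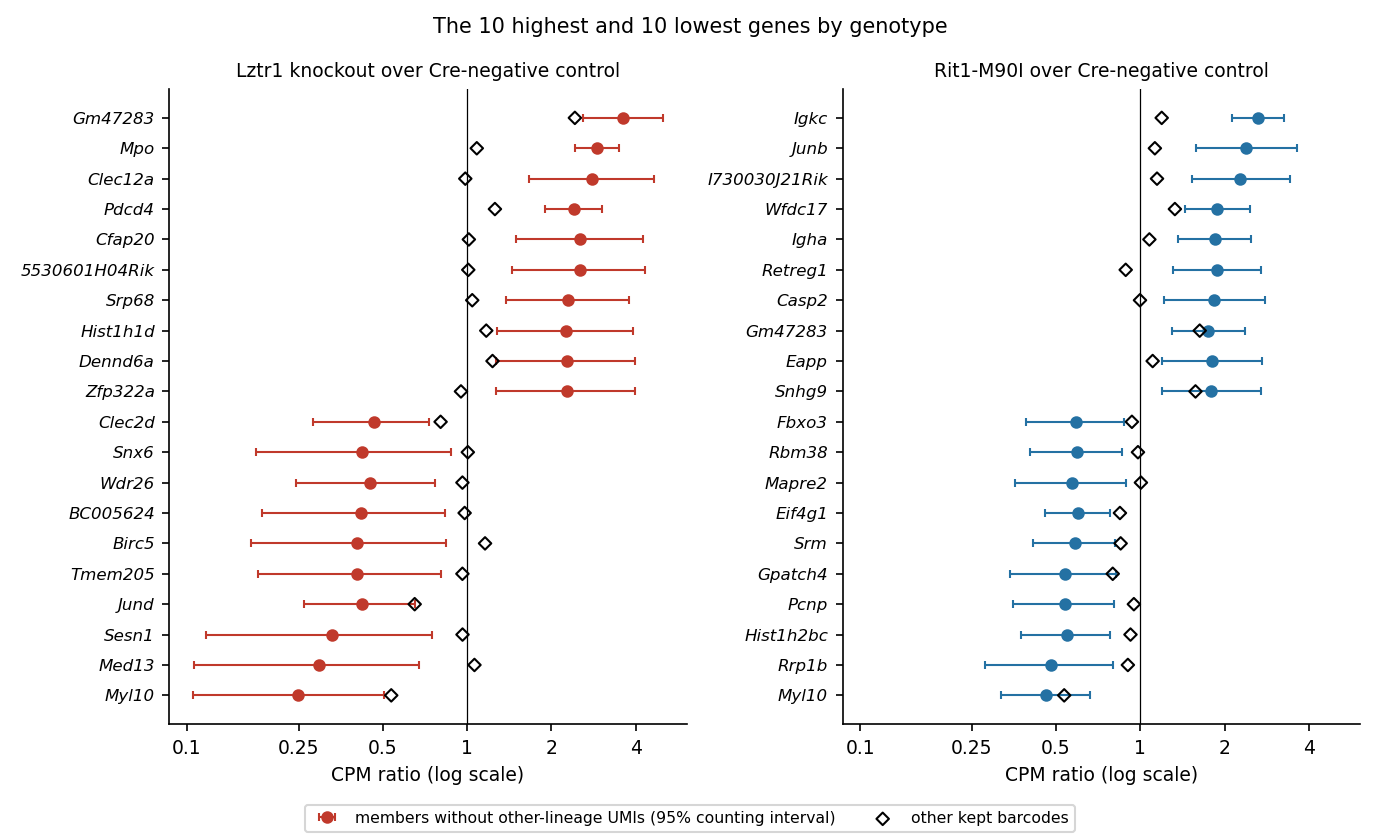
Filled circles give the CPM ratio over the Cre-negative control in members without other-lineage UMIs, with 95% counting intervals, for the 10 highest and 10 lowest genes of each mutant, and open diamonds give the same ratio in the other kept barcodes, all on a log scale. In the Lztr1 knockout Gm47283, Myl10 and Jund are displaced in the same direction in both, while Med13 and Sesn1 have diamonds at 1.06 and 0.963.

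Among the genes highest in Rit1-M90I, Igkc led with 335 CPM in Rit1-M90I members and 127 CPM in control members, a ratio of 2.63 (2.13 to 3.27). Its UMIs were spread over 107 of 142 and 90 of 182 members, and T cells, which do not make it, held 9943 and 4636 CPM, a ratio of 2.14. Igha likewise stood at 138 CPM against 75.1 CPM. Junb, an AP-1 subunit gene with a role in restraining stem cell proliferation, was at 88.3 CPM in Rit1-M90I and 37.1 CPM in the control, a ratio of 2.38 (1.59 to 3.61), against 1.13 in the other kept barcodes. Wfdc17 was at 177 and 93.7 CPM, a ratio of 1.88 (1.44 to 2.47), and 1.33 elsewhere. I730030J21Rik, Retreg1, Casp2, Gm47283, Eapp and Snhg9 completed the 10 highest at ratios of 1.75 to 2.28.

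After Myl10 the lowest genes in Rit1-M90I were Rrp1b, Hist1h2bc, Pcnp, Gpatch4, Srm, Eif4g1, Mapre2, Rbm38 and Fbxo3. Rrp1b, a nucleolar ribosome assembly gene, was at 27.7 CPM in Rit1-M90I and 57.5 CPM in the control, a ratio of 0.481 (0.279 to 0.800). Srm, which encodes spermidine synthase, was at 67.2 and 115 CPM, a ratio of 0.584 (0.413 to 0.816). Eif4g1, the scaffold of the translation initiation complex, was at 109 and 183 CPM, a ratio of 0.599 (0.457 to 0.777). In the other kept barcodes these 3 genes had ratios of 0.903, 0.851 and 0.846, on the same side of 1 and closer to it. The remaining 6 had ratios of 0.537 to 0.594 in members.

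The 2 mutants were also compared with each other. Relative to the Rit1-M90I members, the knockout members were highest in Mpo, Rrp1b, Srpk2, Ppp2r5e and Pcnp. The Mpo ratio was 2.79 (2.30 to 3.39), and that of Rrp1b was 3.09 (1.63 to 5.86), at 85.4 CPM in the knockout and 27.7 CPM in Rit1-M90I. The lowest were Sesn1, Mllt3, Ltb, Tor1aip1 and Med13. Mllt3, a chromatin reader that maintains stem cells, was at 29.7 CPM in the knockout and 90.9 CPM in Rit1-M90I, a ratio of 0.327 (0.136 to 0.681) on 8 and 69 UMIs, with 4 of the 8 in 1 member. Of all 6419 genes, 8.09% were higher and 7.56% lower in this comparison, and of the 6413 genes measured in all members 5.33% were higher and 4.77% lower.

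Genes of stem cell identity were close to the control once the other-lineage barcodes were left out. In the knockout 0 of 27 measured genes of this list were at least 1.5-fold higher and 4 were lower, with a median log2 ratio of -0.04, beside 6.67% and 6.37% of all genes. In all knockout members 9 of 27 were lower and the median was -0.39. In Rit1-M90I the counts were 1 and 0 of 27, with a median of 0.04. Kit, the stem cell factor receptor, was at 267 CPM in the knockout, 306 in Rit1-M90I and 287 in the control. Meis1 was at 278, 267 and 269 CPM, and Cd34, a sialomucin of progenitors, at 386, 317 and 308 CPM. Among the lowest of the list was Hoxb4, a homeobox gene that expands stem cells when overexpressed, with 2, 29 and 39 UMIs, a knockout ratio of 0.205 (0.024 to 0.793). Mycn was at 22.3, 40.8 and 53.8 CPM, a knockout ratio of 0.414 (0.146 to 0.958). Esam was the highest in the knockout, at a ratio of 1.60 whose interval holds 1. In Rit1-M90I the highest was Hacd4, at 69.8 CPM against 35.2 CPM in the control, a ratio of 1.98 (1.28 to 3.09), and Hoxa9 was among the lowest, at a ratio of 0.681.

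Of all 6419 genes 6.67% were higher and 6.37% lower in the knockout, and 2.4% higher and 1.9% lower in Rit1-M90I; the counts of this and the following lists stand beside these shares, and nothing particular to a list is read from them. Of 10 measured quiescence genes, 0 were higher and 2 lower in the knockout, with a median of 0.00 although the summed list was at 0.823 (0.715 to 0.944) of the control. In Rit1-M90I 2 were higher and 0 lower, with a median of 0.21. Txnip, which restrains glucose uptake and thioredoxin in resting cells, was at 238 CPM in the knockout, 385 in Rit1-M90I and 414 in the control. Its knockout ratio was 0.573 (0.434 to 0.746), and 0.649 in the other kept barcodes. Ypel3 was at 149 CPM in Rit1-M90I and 91.8 CPM in the control, a ratio of 1.62 (1.23 to 2.15). The antiproliferative gene Btg2 was at 37.1, 43.5 and 22.3 CPM, highest in Rit1-M90I at a ratio of 1.95 (1.12 to 3.45).

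Priming genes were present at low levels in each library. Of 16 measured neutrophil and monocyte genes, 3 were higher and 0 lower in the knockout, with a median of 0.25, beside 6.67% and 6.37% of all genes. F13a1, the coagulation factor XIII subunit of monocytes, had 14, 12 and 8 UMIs, a knockout ratio of 7.01 (2.74 to 19.3), but 1 of 4 knockout members with the gene held 71.4% of them. In Rit1-M90I 1 was higher and 0 lower, with a median of 0.11, led by Ms4a3 at 32.9 CPM against 15.8 CPM. Of 11 lymphoid genes, 2 were higher and 0 lower in the knockout and likewise in Rit1-M90I, with medians of 0.16 and 0.26, beside 2.4% and 1.9% of all genes in Rit1-M90I. The highest in Rit1-M90I was Jchain, the joining chain gene of plasma cells, at 77.7 CPM against 31.5 CPM, a ratio of 2.47 (1.59 to 3.88), and T cells held it at 1350 CPM in Rit1-M90I and 350.3 CPM in the control. Ighm, the immunoglobulin mu gene, whose sterile transcript is made early in lymphoid priming, was at 137, 136 and 84.4 CPM, with ratios of 1.63 (1.08 to 2.41) and 1.61 (1.20 to 2.16). Ikzf1, the Ikaros gene of lymphoid specification, was at 152, 117 and 94.6 CPM, with a knockout ratio of 1.61 (1.09 to 2.33). In all members the summed lymphoid list was 2.52 times the control in both mutants, which the other-lineage barcodes carried.

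Of 12 erythroid genes, 0 were higher and 1 lower in the knockout, with a median of -0.20, beside 6.67% and 6.37% of all genes, and 2 were higher and 0 lower in Rit1-M90I, with a median of -0.01. Aqp1, a water channel gene, had 6, 25 and 13 UMIs, a Rit1-M90I ratio of 2.73 (1.35 to 5.82). Of 13 megakaryocyte genes, 0 in either direction passed 1.5-fold in the knockout, with a median of 0.00. In Rit1-M90I 1 was higher, Slc14a1, a urea transporter gene found in stem cells with megakaryocyte bias, at 61.9 CPM against 31.5 CPM, a ratio of 1.964 (1.24 to 3.15). Its median was 0.11.

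Several genes of mitosis were lower in the knockout members without other-lineage UMIs, and others of the list were not. Of 36 measured G2 and mitosis genes, 2 were higher and 10 lower than the control, beside 6.67% and 6.37% of all genes, with a median of -0.23 and a summed ratio of 0.805 (0.751 to 0.864). Cenpf, a kinetochore protein gene, had 4 UMIs in the knockout, 42 in Rit1-M90I and 74 in the control, a ratio of 0.216 (0.0575 to 0.578). Cdc20, an activator of the anaphase-promoting complex, had 3, 25 and 53 UMIs, a ratio of 0.227 (0.0453 to 0.699). Other genes of the list did not differ this way: Top2a was at 304, 236 and 247 CPM and Mki67 at 167, 159 and 185 CPM, with intervals that hold 1. With the other-lineage barcodes the knockout median was 0.22, with 9 genes higher and 1 lower of 39, so the direction depends on which members are counted. In Rit1-M90I the median was -0.20, with 0 genes past 1.5-fold and a summed ratio of 0.889 (0.849 to 0.931).

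S phase genes had a median of 0.09 in the knockout, with 0 higher and 1 lower of 41 beside 6.67% and 6.37% of all genes, and of -0.22 in Rit1-M90I, with 0 higher and 2 lower. The summed list was 0.849 (0.807 to 0.894) of the control in Rit1-M90I and 1.04 (0.971 to 1.11) in the knockout. Rad51ap1, a homologous recombination gene, was at 52.0 CPM in the knockout, 15.8 in Rit1-M90I and 39.9 in the control, a Rit1-M90I ratio of 0.396 (0.190 to 0.765). Cdc6, which licenses replication origins, was at 18.6, 19.8 and 40.8 CPM. Counted per cell, members with at least 1% of their UMIs from both lists numbered 6 of 36 in the knockout (16.7%, 6.37 to 32.8), 22 of 142 in Rit1-M90I (15.5%, 9.97 to 22.5) and 34 of 182 in the control (18.7%, 13.3 to 25.1). The intervals overlap, and 5, 16 and 20 of the members lay near that mark. Few members thus carried these genes at a high level, and 1 knockout member held 4 of the 8 Birc5 UMIs.

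Ribosome biogenesis genes had a median of 0.17 in the knockout, with 2 higher and 0 lower of 31 beside 6.67% and 6.37% of all genes, and of -0.09 in Rit1-M90I, with 0 higher and 3 lower. The summed list was 1.10 (1.04 to 1.16) of the control in the knockout and 0.934 (0.897 to 0.972) in Rit1-M90I. Mybbp1a, a nucleolar protein gene, was at 186, 151 and 109 CPM, with ratios over control of 1.70 (1.19 to 2.38) and 1.38 (1.06 to 1.81). Bop1, needed for maturation of the large subunit, was at 48.3, 14.5 and 39.9 CPM, a Rit1-M90I ratio of 0.363 (0.169 to 0.717). The list therefore stood on opposite sides of the control in the mutants, by less than 1.5-fold in each.

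Genes downstream of MAPK were only partly measured in cells this few. Of 7 measured output and feedback genes, 1 was higher in the knockout and 1 in Rit1-M90I, with medians of 0.27 and -0.18, beside 6.67% and 2.4% of all genes. Spred2, an inhibitor of RAS signalling that is induced by it, was at 40.8 CPM in the knockout, 29.0 in Rit1-M90I and 14.8 in the control, on 11, 22 and 16 UMIs. Its ratios were 2.75 (1.16 to 6.32) and 1.95 (0.980 to 3.98). Spred1 was at 78.0, 42.2 and 51.9 CPM, and the cyclin gene Ccnd1 at 40.8, 34.2 and 41.7 CPM. Dusp6, the ERK phosphatase gene and a usual readout of the pathway, had 8, 10 and 21 UMIs, with intervals of the ratios that hold 1. Of 9 RAS family and ligase genes, 1 was higher and 0 lower in the knockout and 0 in either direction in Rit1-M90I, with medians of 0.09 and -0.18. Of 21 genes of RAF, MEK, ERK and their adaptors, 1 was higher and 0 lower in the knockout and 0 and 1 in Rit1-M90I, with medians of 0.11 and -0.06.

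Immediate early genes, which respond to signals and to handling within minutes, stood on different sides of the control in the mutants. Of 9 measured, 1 was higher and 2 lower in the knockout, beside 6.67% and 6.37% of all genes, with a median of -0.26 and a summed ratio of 0.687 (0.570 to 0.822). In Rit1-M90I 4 were higher and 0 lower, with a median of 0.26 and a summed ratio of 1.18 (1.06 to 1.30). Egr1, a zinc finger factor of growth response, was at 37.1 CPM in the knockout, 52.7 in Rit1-M90I and 14.8 in the control, with ratios of 2.50 (1.02 to 5.87) and 3.55 (1.95 to 6.79). Jun was at 104, 166 and 179 CPM, a knockout ratio of 0.581 (0.376 to 0.866), and 0.600 in the other kept barcodes. Fos had 1, 20 and 29 UMIs, a knockout ratio of 0.138 (0.00338 to 0.833), and 0.464 in the other kept barcodes. For Jun, Jund and Fos the knockout was thus lower both in members and in the other kept barcodes. In all members the knockout median was 0.28 while the summed ratio was 0.905, so the direction of this list depends on the members counted and, in all members, on the measure.

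Interferon response genes, of interest because pIpC works through interferon, had medians of -0.10 in the knockout, with 1 higher and 5 lower of 28 beside 6.67% and 6.37% of all genes, and of -0.06 in Rit1-M90I, with 1 and 1. Rtp4 had 3, 35 and 54 UMIs, a knockout ratio of 0.222 (0.0445 to 0.686). Ifi27l2a was at 33.4, 23.7 and 62.1 CPM, a Rit1-M90I ratio of 0.382 (0.213 to 0.650). Ifitm1, an antiviral membrane protein gene abundant in stem cells, was at 420, 793 and 689 CPM, with a knockout ratio of 0.609 (0.495 to 0.743) and 0.561 in the other kept barcodes. Of 14 MHC genes, 0 were higher and 2 lower in the knockout, with a median of -0.27, and 0 and 1 in Rit1-M90I, with a median of -0.07. Cd74, the invariant chain of class II, had 1, 23 and 64 UMIs, with ratios of 0.0626 (0.00156 to 0.361) and 0.511 (0.302 to 0.834). A single control member held 84.4% of the control UMIs of Cd74, so its level there rests on that barcode. H2-Ab1, a class II beta chain gene, had 7, 26 and 60 UMIs, with 43.3% of the control UMIs in 1 member.

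Lists of cytokine and niche receptors, of metabolism and of epigenetic regulators stayed near the control. Their medians lay between -0.03 and 0.05 in both mutants, with at most 2 genes past 1.5-fold in either direction in any of them, and 6.67% and 6.37% of all genes past it in the knockout. Apoptosis genes had medians of 0.16 in the knockout, with 1 higher of 11, and of -0.05 in Rit1-M90I, with 0. The list of stem cell aging had only 3 measured genes and is not described further.

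Surface molecules used to sort stem and multipotent cells were seen in part of the members at equal depth. Thinned to 2000 UMIs, Kit was found in 36.1% of knockout, 42.0% of Rit1-M90I and 46.2% of control members without other-lineage UMIs, against 3.95%, 4.05% and 2.09% of T cells. In barcodes with at least 10 Car1 UMIs, called Car1-rich, Kit was found in 25.4%, 31.9% and 22.9%, so it was not particular to members. Flt3, a cytokine receptor of multipotent progenitors that have lost long-term stem cell function, was found in 27.8% (14.2 to 45.2), 22.5% (15.8 to 30.3) and 15.4% (10.5 to 21.5) of these members. In T cells it was found in 1.32%, 3.20% and 1.61%, and in Car1-rich barcodes in 1.29%, 1.29% and 0.822%. Unthinned, the members with a Flt3 UMI were 47.2%, 35.9% and 32.4%, at median depths of 7066.5, 5011 and 5282 UMIs per member, against 3804, 3242.5 and 2718 in T cells. The knockout stood highest and the control lowest in both forms, with overlapping intervals. In all members the Flt3 shares were 15.8%, 20.9% and 13.8% thinned and 36.8%, 29.3% and 31.1% unthinned. The order of the libraries thus depends on the members counted. Thinned shares also vary by draw: Flt3 was found in 9 of all 57 knockout members, but in 10 of the 36 without other-lineage UMIs. Cd34 was found in 63.9% (46.2 to 79.2), 42.8% (34.4 to 51.5) and 44.0% (36.6 to 51.5). Cd48 was found in 30.6%, 22.5% and 17.0% of members, but T cells carry it in 28.6% to 32.0%. Slamf1, which encodes CD150, was too scarce for a comparison at 2000 UMIs. Unthinned it was found in 5.56% of knockout, 6.34% of Rit1-M90I and 3.30% of control members, or 2, 9 and 6 of them, against 2.41%, 0.197% and 1.82% of T cells. Car1-rich barcodes carried Slamf1 in 7.96%, 4.58% and 6.99%, at median depths of 20383, 17606 and 18752 UMIs.

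The members were not uniform, and several gene lists differed between those with and without a Flt3 UMI. Members with a Flt3 UMI numbered 17 in the knockout, 51 in Rit1-M90I and 59 in the control, and those without numbered 19, 91 and 123. The presence of a UMI depends on depth: the medians with Flt3 were 6513, 5311 and 6288 UMIs, and without it 7318, 4614 and 4747. The split was made on the same counts, so the ratios that follow are a description. Lymphoid priming genes other than Flt3 were 1.80 (1.45 to 2.23), 1.65 (1.47 to 1.85) and 1.77 (1.59 to 1.96) times as high with Flt3 in the knockout, Rit1-M90I and the control. Erythroid priming genes were at 0.412 (0.333 to 0.508), 0.461 (0.405 to 0.523) and 0.327 (0.290 to 0.368) times, and megakaryocyte genes at 0.621, 0.706 and 0.777 times. Stem cell identity genes were at 0.873, 0.831 and 0.693 times. For these 4 lists the ratios lay on the same side of 1 in each library. Others did not move alike. Neutrophil and monocyte priming genes were at 1.13 (0.976 to 1.30), 1.66 and 1.85 times with Flt3, and S phase genes at 0.874 (0.772 to 0.990), 1.15 and 1.34 times. The marker list of dendritic cells was at 1.22 (0.763 to 1.97), 3.36 (2.63 to 4.32) and 2.96 (2.37 to 3.70) times, so markers of another cell type moved with the division in Rit1-M90I and the control, and their part in it was not tested. Whether the libraries differ in these ratios was not tested either.

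Single genes of these lists are given next. Ighm was 3.90, 3.31 and 6.87 times as high with Flt3, and Satb1, a chromatin organiser of lymphoid priming, 4.12, 2.70 and 2.60 times. Gata2, a factor of stem cells and of the erythroid, megakaryocyte and mast cell lineages, was at 0.386, 0.218 and 0.214 times. Itga2b, the CD41 integrin of stem cells and megakaryocytes, was at 0.107, 0.106 and 0.322 times. Adgrl4, one of the genes that chose the members, was level, at 1.09, 1.13 and 1.10 times, while Slamf1 had no UMI in any Flt3 member and 3, 9 and 7 UMIs in the members without. Some genes did not follow the same order in each library. Hlf was at 1.12, 1.10 and 0.502 times and Mecom at 1.07, 0.404 and 0.369 times. In the knockout Mecom rests on 16 UMIs in all. Mpo was at 1.22, 1.18 and 2.50 times and Txnip at 0.948, 0.753 and 0.420 times, so their division by Flt3 was weaker in the mutants than in the control; the difference between libraries was not tested.

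**Figure D5:**
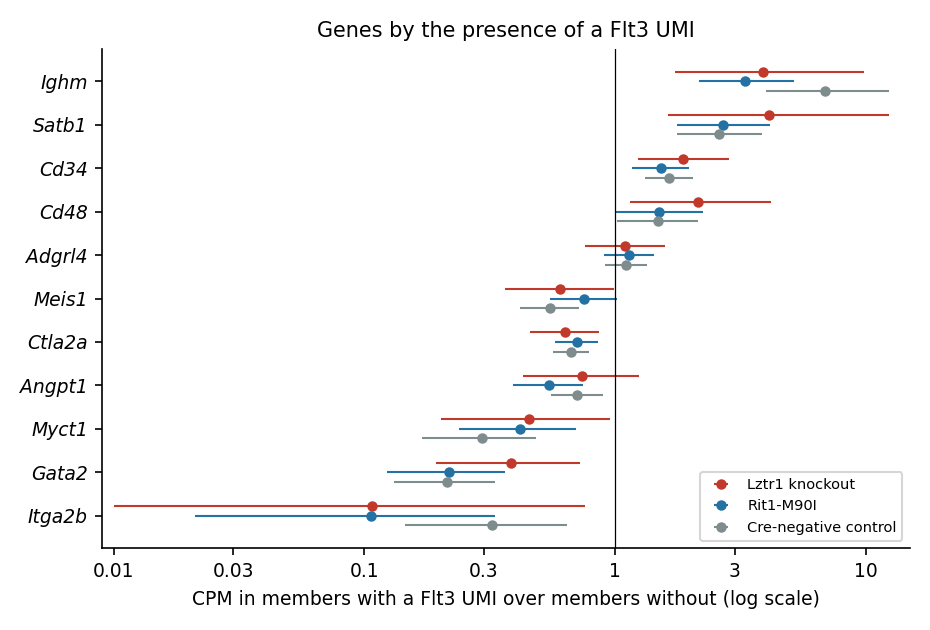
Points give the CPM of a gene in members with a Flt3 UMI over that in members without, among members without other-lineage UMIs, with 95% counting intervals on a log scale, for the Lztr1 knockout, Rit1-M90I and the Cre-negative control. Ighm, Satb1, Cd34 and Cd48 lie above 1 and Gata2, Myct1 and Ctla2a below 1 in all 3 libraries; the interval of Itga2b in the knockout is drawn from 0.01 although its lower bound is 0.00248.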

How the data were processed

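Per the labels, droplet 3′ single-cell RNA libraries were made from sorted lineage-negative marrow. The authors deposited whole-number UMI counts per gene and barcode, per the file headers from Cell Ranger 6.1.1, with no normalization; the submitters' processing notes name mm10 and Seurat 4.1.0. Here counts were summed per library over members and divided by the summed UMIs to give CPM, and ratios carry exact conditional 95% intervals for counting error. Log2 ratios are of CPM plus 10, which understates the change of low genes. Genes with a mean of at least 20 CPM were measured, and the 13 genes of the rule were left out. The named genes are the 10 highest and 10 lowest of each mutant over the control and 5 of each between mutants, with a mean of at least 50 CPM and an interval without 1, leaving out mitochondrial and ribosomal genes, plus the 2 highest and 2 lowest of lists described and the genes of the rule. Some genes that this rule names are not reported here. Where other genes are given, they were chosen after their values were seen. The members and the gene lists were chosen with earlier results of these data known; the other-lineage limits, the 7 stem-cell genes and the Flt3 division were chosen after values were seen. T cells are kept barcodes by their Cd3e, Cd3d and Cd3g UMIs. Doublets were marked with Scrublet in scanpy 1.11.5 and kept. With 1 library per genotype no count model or test was run, and the scripts were tested on simulated data. Alternatives covered barcode filters, doublets, depth, scaling, pseudocount, gene filters and leaving out cells. Python 3.11.15, numpy 2.4.6, scipy 1.17.1, pandas 2.3.3 and matplotlib 3.10.9 were used, with GENCODE M21 for gene positions.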

Additional observations from a re-analysis of the deposited data

How the results depend on the processing

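The lower share of Rit1-M90I members than of control members held in all settings computed, and no setting moved the median of all genes by over 0.1 on the log2 scale. Thinned to 4000 UMIs with other-lineage members left out, the Rit1-M90I ratio over control was 0.552 and the knockout ratio over control was 0.835. The knockout ratio over control was 1.23 thinned to 6000 UMIs, 0.614 without other-lineage members and 0.541 without members that had 3 UMIs of a wider, earlier-listed set of other-lineage genes (the wider exclusion), and the knockout ratio over Rit1-M90I was 2.13 at 6000 UMIs and 0.923 under the wider exclusion. With 57, 184 and 206 cells and 1 library each, depth limits single genes: 5 UMIs of Lztr1 in the knockout cannot show a difference of this size. No paired analysis was possible because each genotype has 1 library.

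Counts of genes past 1.5-fold moved with filters and cell number. For higher and lower in the knockout over control they were 312 and 322, in Rit1-M90I over control 135 and 113, and in the knockout over Rit1-M90I 342 and 306. In that order they were 83, 80, 37, 24, 104 and 68 at a mean of 50 CPM, 698, 789, 346, 271, 744 and 866 with no gene filter, and 491, 541, 271, 264, 578 and 547 with a pseudocount of 1. They were 619, 488, 268, 237, 685 and 571 thinned to 4000 UMIs, and 1175, 809, 377, 325, 1142 and 847 under the wider exclusion. By construction fewer genes were tested at 50 CPM, more with no gene filter, and fewer cells or UMIs entered under thinning and under the wider exclusion. Without other-lineage members the knockout over Rit1-M90I had 519 higher and 485 lower. With at least 3 stem-gene UMIs the knockout had 495 higher and Rit1-M90I 250 higher than the control, and 512 were lower in the knockout than in Rit1-M90I. With equal weight per cell 505 were higher in the knockout than in the control.

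Where no construction is named the cause of the following was not tested. List medians that lay far from 0 changed sign in 2 cases. Of the others 154 moved and 567 did not, and 56 and 47 of these, near 0 or with an interval that held 0, changed sign too, such as G2 and mitosis and immediate early in the knockout over control, at -0.23 and -0.26 without other-lineage members. The immediate early median of the knockout over Rit1-M90I was 0.15 under the wider exclusion, and the basophil and mast cell median -0.069 without other-lineage members. Of single genes 45 values reversed, 117 moved and 850 did not. Over control in the knockout (log2), reversed values with 3 stem-gene UMIs were Igha -0.44, Igkc -0.21 and Iglc2 -0.28. Thinned to 4000 UMIs they were Cyfip2 0.064, Hist1h1d -0.067, Igha -2.71, Igkc -2.95, Iglc2 -0.46, Jchain -0.86 and Lztr1 0.87. Under the wider exclusion they were Iglc2 -0.37 and Mpo -0.67, and Mpo is itself in that exclusion. Without other-lineage members they were Id2 -0.35, Igha -0.29 and Iglc2 -0.25, and Id2 and Igha are themselves genes of those limits. Without the cell with most UMIs they were Igha -0.41 and Iglc2 -0.11, and with other-lineage members left out as well Id2 -0.64, Igha -0.38, Iglc2 -0.13 and Jchain -0.12. In Rit1-M90I over control, Cxcl12 was 0.051 and Slpi -0.26 with 3 stem-gene UMIs, and Cxcl12 was 0.17 with the stricter barcode filter. Thinned to 4000 UMIs Cxcl12 was 0.29, Igha -1.98, Igkc -1.52, Iglc2 -0.46 and Jchain -0.041. Cxcl12, itself a gene of the stromal limit, was 0.21 without other-lineage members, 0.028 without the cell with most UMIs and 0.18 with both left out. In the knockout over Rit1-M90I, Iglc3 was 0.018 and Slpi 0.043 with 3 stem-gene UMIs. Thinned to 4000 UMIs Ccr9 was -0.69, Iglc3 0.28, Ltb 0.17 and Slpi 0.54. Under the wider exclusion Iglc3 was 0.55, Mpo -1.14, Pclaf -0.65 and Tyms -0.20. Ccr9 was -0.49 and Slpi 0.60 without other-lineage members, and Ccr9 was -0.61 with the cell with most UMIs left out too.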
